A study of Homo sapiens with 4 samples.

Results

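The genes described here are 9 feedback and target genes of transforming growth factor-β (TGF-β) and bone morphogenetic protein (BMP) signaling, namely BAMBI, SMAD6, SMAD7, SMAD3, CCN1, CCN2, ID1, ID2 and ID3. They were chosen by symbol: every gene probe on the array whose RefSeq accession belonged to one of these symbols was taken, which gave 10 probes for 9 of the 25006 genes that could be named on the array. ID2 had 2 probes and each of the other genes had 1. Their expression was measured in HML58-3 cells, a derivative of the human colorectal cancer cell line HCT116 that carries a luciferase reporter driven by a methylated promoter, so that loss of DNA methylation turns the reporter on. The cells had been mock-treated or exposed to 1 μM of decitabine (DAC), a cytidine analogue that is built into DNA and traps DNA methyltransferases, or to 1 μM of OR-2003 or OR-2100, both made as prodrugs of DAC. Drug exposure began on day 1 and RNA was taken on day 5. Each of the 4 conditions was measured on 1 one-color oligonucleotide microarray, all 4 on 1 slide, and all cells were of 1 derivative line, so the differences below could not be checked against replicates or tested.

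TGF-β and activin bind pairs of receptor kinases at the cell surface that phosphorylate SMAD2 and SMAD3, whereas BMPs act through SMAD1, SMAD5 and SMAD9, and both kinds of SMAD enter the nucleus together with SMAD4. The pathway switches on its own inhibitors: SMAD6 and SMAD7 block the receptors from inside the cell, and BAMBI is a receptor-like membrane protein without a kinase domain. ID1, ID2 and ID3 are long-known BMP targets that hold back the E protein transcription factors, and CCN1 and CCN2 code for secreted matrix-associated proteins that respond both to TGF-β and to the YAP and TAZ coactivators, which act through TEAD factors. In the colon epithelium TGF-β restrains growth, and HCT116 cells are known for lacking a working TGF-β receptor 2. An array of this kind reads transcripts only, so SMAD phosphorylation and receptor activity were not measured.

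All levels below are log2 values in which 0 is the 75th percentile of the gene probes on the same array. A gene was called induced if its level was at least 2-fold higher than in mock-treated cells and was −1 or more with the drug, and reduced if it was at least 2-fold lower and was −1 or more in mock-treated cells. CCN1, CCN2, BAMBI and SMAD7 were induced and ID1 was reduced with each of the 3 drugs, and SMAD6, SMAD3, ID2 and ID3 met neither rule with any of them. Thus, 4 of 9 genes were induced, where 5.77% (DAC), 5.89% (OR-2003) and 5.81% (OR-2100) of all 25006 genes were induced. One of 9 was reduced, where 5.96%, 6.05% and 6.82% of all genes were reduced. The 9 genes were chosen with earlier results of these data known, so these shares are a description and not a test. All 10 probes of the 9 genes were well above background on each array. Among the 15977 genes that met this mark on all 4 arrays, 5.76% were induced and 8.15% were reduced with all 3 drugs. The median difference over those 15977 genes was −0.18 with DAC, −0.17 with OR-2003 and −0.21 with OR-2100. Of the 9 genes, 5 lay above that median with every drug and the other 4 below it.

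**Figure D1:**
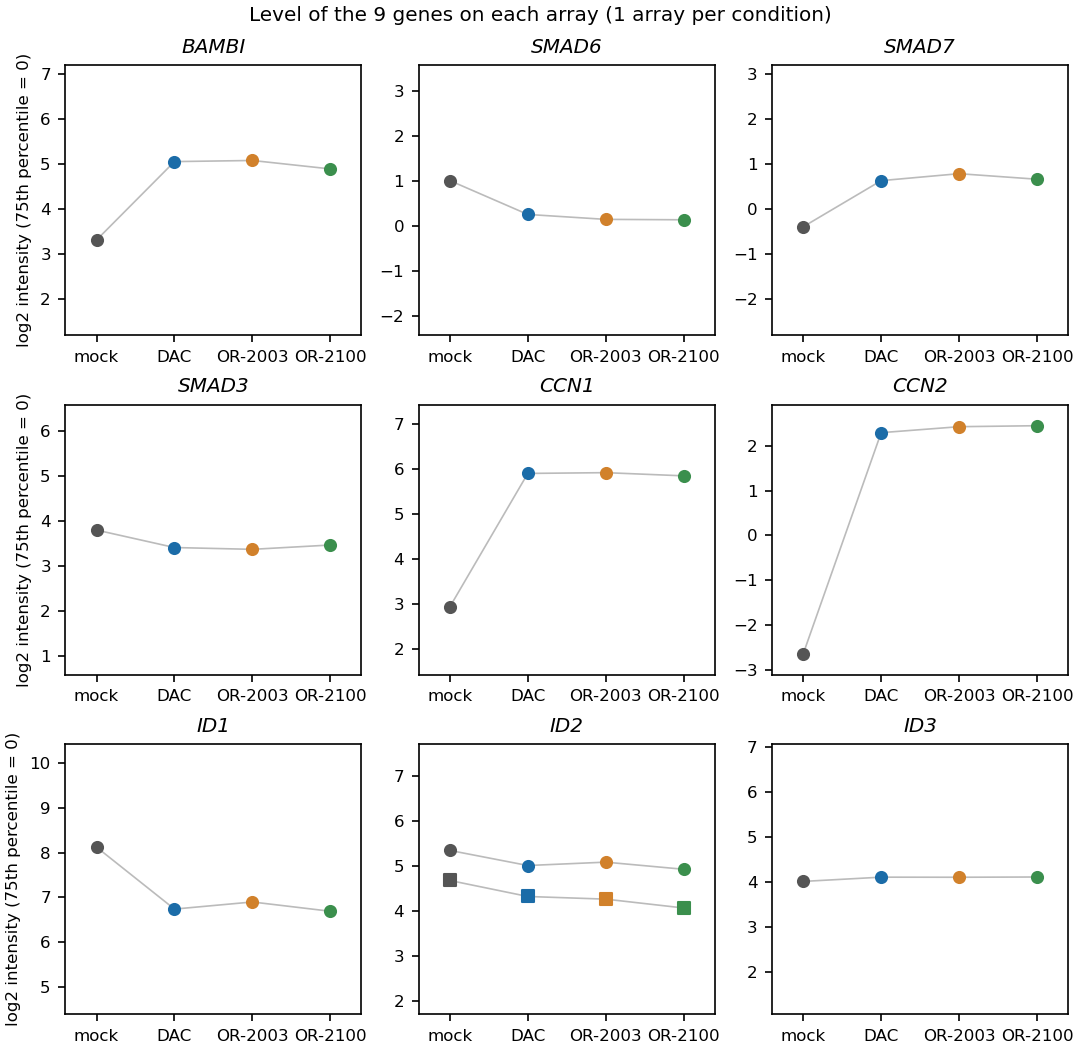
Level of each of the 9 genes on the 4 arrays (y axis, log2 signal, 0 = 75th percentile of the gene probes of that array; 1 point per array joined by a line, no error bars because each condition has 1 array). Each panel spans 6 log2 units on its own axis; in the ID2 panel circles and squares are the 2 probes. In the CCN2 panel the points rise from −2.63 in mock-treated cells to between 2.29 and 2.44 with the drugs, and in the ID1 panel they go from 8.12 down to between 6.69 and 6.90.

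The precision of these values has 2 known parts. Probes printed many times on the array had a median SD between their spots of 0.059 to 0.067 on the log2 scale, depending on the array. The scanner software's own error for 1 spot gave an error of 0.20 to 0.24 for the difference of a member probe between 2 arrays. Both cover a spot, not a culture, and the spread between cultures was not measured.

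CCN2 (also known as CTGF), a matricellular protein of fibrosis and wound repair, had the largest difference of the 9 genes. Its level was −2.63 in mock-treated cells, 2.29 with DAC, 2.42 with OR-2003 and 2.44 with OR-2100. Its probe was dim but well above background in mock-treated cells, with an intensity of 24.6, against 859, 889 and 954 with the 3 drugs. The differences of 4.91, 5.05 and 5.07 (error 0.24) corresponded to 30.1-, 33.0- and 33.6-fold higher signal. The mean of the 3 differences was above that of 99.8% of the 27921 probes that were well above background on all arrays. With another background correction (normexp), which raises dim values, the differences were 3.10, 3.17 and 3.24, and the call held.

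CCN1 (also known as CYR61), the other family member of the 9 and a ligand of integrins, was also induced. Its level was 2.93 in mock-treated cells, 5.90 with DAC, 5.91 with OR-2003 and 5.84 with OR-2100, a difference of 2.96, 2.98 and 2.91. This was 7.80-, 7.90- and 7.52-fold, above 98.8% of the probes. For both genes the 3 drug-treated arrays lay within 0.16 of each other and far from the mock array.

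Of the remaining CCN family, 4 genes were on the array and 1 had a probe well above background on all arrays. This was CCN3, also known as NOV, with a level of −0.51 in mock-treated cells and of −2.06, −1.82 and −2.03 with the drugs. It was reduced with all 3 drugs (2.93-, 2.48- and 2.87-fold lower). CCN3 thus went the other way from CCN1 and CCN2.

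The 250 bases before the CCN2 start are shown because CCN genes are read as TEAD and SMAD targets. Capitals mark matches, on either strand, to the TEAD motif GGAATG and to the SMAD motif CAGAC.
CCN2: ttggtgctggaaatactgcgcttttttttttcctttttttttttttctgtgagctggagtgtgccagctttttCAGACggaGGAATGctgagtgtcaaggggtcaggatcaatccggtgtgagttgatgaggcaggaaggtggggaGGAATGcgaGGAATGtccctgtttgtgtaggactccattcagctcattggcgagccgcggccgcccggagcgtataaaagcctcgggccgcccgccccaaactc
The stretch is chr6:131951373-131951622, minus strand, in the RefSeq annotation of GRCh38.p14. It held 3 matches to GGAATG, at 169, 104 and 95 bases before the start, and 1 match to CAGAC at 177 bases. A match to GGAATG was found in 11.9% and a match to CAGAC in 38% of the 35116 promoter stretches of the same length. These are descriptions of the letters, not evidence of a bound site.

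BAMBI, the decoy receptor, had a level of 3.31 in mock-treated cells, 5.05 with DAC, 5.07 with OR-2003 and 4.89 with OR-2100. The differences of 1.74, 1.77 and 1.58 (error 0.20) were 3.34-, 3.40- and 2.99-fold, above 96.7% of the probes that were well above background. BAMBI was induced with each drug under every other setting of the processing that kept the 2-fold threshold.

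SMAD7, the inhibitory SMAD that brings ubiquitin ligases to the TGF-β receptor, lay at the 2-fold threshold. Its level was −0.40 in mock-treated cells, 0.63 with DAC, 0.78 with OR-2003 and 0.66 with OR-2100. The differences of 1.02, 1.18 and 1.06 (error 0.21) were 2.03-, 2.27- and 2.08-fold. All 3 drug-treated arrays were above the mock array by more than the spot error. With each drug, however, the distance from the threshold itself was smaller than that error, and with DAC it was far smaller. The call was lost with normexp, where the differences were 0.69, 0.81 and 0.73, when arrays were scaled to their median, where they were 0.91 to 0.97, and when they were scaled to the 75th percentile of bright probes, where the level with the drugs was under −1.

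SMAD6, the inhibitory SMAD that acts mainly on BMP receptors, was lower with the drugs. Its level was 1.00 in mock-treated cells and 0.25, 0.14 and 0.13 with the drugs. The differences of −0.75, −0.86 and −0.87 were 1.68-, 1.82- and 1.83-fold lower and did not reach the rule for reduction. Over the settings of the processing that change levels they ranged from −1.08 to −0.55, and only OR-2003 under median scaling passed the rule. The 2 inhibitory SMADs thus lay on opposite sides of the mock array.

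The 250 bases before the BAMBI start are shown because they held more CpG dinucleotides than any other of the 14 stretches found for 8 of the 9 genes. Capitals mark GGCGCC, a GC-rich element read by BMP SMADs, and CAGAC, on either strand.
BAMBI: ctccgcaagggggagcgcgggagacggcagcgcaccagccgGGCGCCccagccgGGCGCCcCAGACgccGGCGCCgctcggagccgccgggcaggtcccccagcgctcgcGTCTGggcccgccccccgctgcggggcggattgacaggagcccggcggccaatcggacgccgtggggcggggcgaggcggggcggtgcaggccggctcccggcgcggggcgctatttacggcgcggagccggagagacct
This stretch, chr10:28677271-28677520 on the plus strand of GRCh38.p14, held 41 CpG dinucleotides, more than 98.3% of all promoter stretches, where the median was 11. It had 3 matches to GGCGCC, found in 16.4% of all stretches, and 2 matches to CAGAC. RefSeq gave 3 stretches for SMAD7. That at chr18:48950966-48951215, minus strand, held 13 CpG and 2 matches to CAGAC, and the others held 13 CpG with 1 match and 2 CpG with none. The stretch of SMAD6 (chr15:66701986-66702235, plus strand) held 25 CpG and no match to any of the 3 motifs. Methylation of these stretches was not measured on these arrays.

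**Figure D2:**
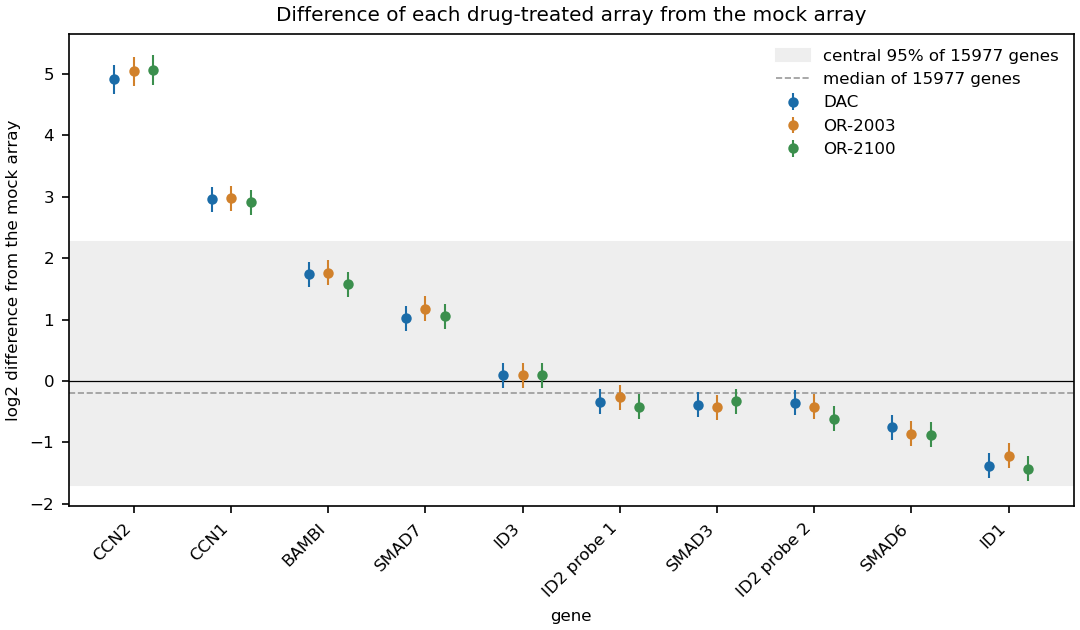
Difference of each drug-treated array from the mock array (y axis, log2) for the 10 probes of the 9 genes (x axis, 1 point per drug); vertical bars are the error of the difference from the scanner software's error for 1 spot. The dashed line is the median and the shaded band the central 95% of the 15977 genes well above background (mean of the 3 drugs, −1.69 to 2.26), and CCN1 and CCN2 lie outside it with every drug.

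SMAD3, which carries the TGF-β signal to the nucleus, had a level of 3.79 in mock-treated cells, 3.40 with DAC, 3.36 with OR-2003 and 3.46 with OR-2100. The differences of −0.39, −0.43 and −0.33 were larger than the spot error and met neither rule. Over the settings of the processing they stayed below 0, from −0.65 to −0.11, and relative to the median gene SMAD3 lay at −0.21, −0.26 and −0.12.

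Among the other SMADs, SMAD4, the partner shared by both branches, was reduced. Its brighter probe had a level of 4.49 in mock-treated cells and of 3.21, 3.14 and 3.13 with the drugs, which was 2.43-, 2.56- and 2.58-fold lower. Its other probe had a mean difference of −0.49, and with the mean of both probes SMAD4 was not called. SMAD2 had differences of −0.81, −1.12 and −1.13 and passed the rule for reduction with OR-2003 and OR-2100. Over the settings of the processing its differences ranged from −1.34 to −0.50, and under none was it reduced with all 3 drugs. TGFBR2, which codes for TGF-β receptor 2, had a level of 2.97 in mock-treated cells and of 2.54, 2.48 and 2.53 with the drugs, and met neither rule.

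The 3 ID genes among the 9 genes did not move together. ID1 had a level of 8.12 in mock-treated cells, 6.74 with DAC, 6.90 with OR-2003 and 6.69 with OR-2100. The differences of −1.38, −1.22 and −1.42 (error 0.20) were 2.60-, 2.33- and 2.68-fold lower, and 5.18% of the probes well above background had a lower mean difference. After quantile normalization the differences were −0.998, −0.866 and −0.951, so the call was lost.

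ID2 was read by 2 probes that agreed in direction. The first had a level of 5.35 in mock-treated cells and of 5.01, 5.09 and 4.93 with the drugs, and its differences were −0.34, −0.26 and −0.42. The second had a level of 4.68 in mock-treated cells and of 4.32, 4.26 and 4.07 with the drugs, and its differences were −0.36, −0.41 and −0.61. Both probes were lower with every drug by more than the spot error of 0.20 and met neither rule. Over the settings of the processing the differences of ID2 ranged from −0.51 to −0.059, and with quantile normalization (−0.17, −0.10 and −0.19) they were below that error. Relative to the median gene the first probe lay at −0.15, −0.089 and −0.21.

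ID3 had a level of 4.02 in mock-treated cells, 4.11 with DAC, 4.11 with OR-2003 and 4.12 with OR-2100. Its differences of 0.09, 0.09 and 0.10 were below the spot error of 0.20, and their sign turned under median scaling, where the lowest was −0.13. Relative to the median gene ID3 lay 0.28, 0.26 and 0.31 higher.

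The stretches before the starts of ID1 and ID3 are printed side by side because these differed most in response among ID1, ID2 and ID3. Capitals mark any match to the 3 motifs named above on either strand.
ID1: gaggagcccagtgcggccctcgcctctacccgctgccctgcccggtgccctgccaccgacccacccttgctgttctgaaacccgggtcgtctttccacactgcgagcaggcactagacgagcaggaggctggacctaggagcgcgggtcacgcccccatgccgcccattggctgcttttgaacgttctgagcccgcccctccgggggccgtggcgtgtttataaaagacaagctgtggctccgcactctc
ID3: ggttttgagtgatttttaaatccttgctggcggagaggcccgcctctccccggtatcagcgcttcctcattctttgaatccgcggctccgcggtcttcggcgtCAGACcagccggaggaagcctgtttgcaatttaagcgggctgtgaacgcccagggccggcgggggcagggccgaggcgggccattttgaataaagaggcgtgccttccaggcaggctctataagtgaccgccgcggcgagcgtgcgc
ID1 lies at chr20:31605039-31605288 on the plus strand and ID3 at chr1:23559502-23559751 on the minus strand of GRCh38.p14. The ID1 stretch held 19 CpG and no match, hence no capitals. The ID3 stretch held 24 CpG and 1 match to CAGAC. The ID2 stretch held 29 CpG and no match. No match means only that these letters do not occur in the window, since BMP-responsive elements can lie farther away.

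Of the E proteins, the partners that ID proteins hold back, TCF3 had differences of −0.19, −0.24 and −0.24 and TCF12 of −0.32, −0.31 and −0.33. Neither was called, and the sign for TCF3 depended on the setting. TCF4, the other E protein, was not well above background in mock-treated cells and was at least 2.99-, 2.40- and 2.22-fold higher with the drugs, at levels of −2.71, −3.02 and −3.14 that were too low for the rule of induction.

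The genes with the most similar response were also sought. Over the 15976 other genes well above background on all arrays, likeness was measured as the Euclidean distance over the 3 differences from mock-treated cells. CCN2 was nearest to KCNV2 (distance 0.188), TGFBI (0.232) and H2AB2 (0.240). ID1 was nearest to RAB17 (0.0148), MAN1A1 (0.0290) and ELMOD2 (0.0439). The 3 differences share 1 mock array, so a closeness of this kind also carries that array's error. The distances from ID1 were far below the spot error of 1 of its differences (0.20), and those from CCN2 were near its own (0.24). The order of these genes is therefore not resolved.

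A list of 116 further genes was drawn up by role, of which 115 were on the array under their names and 84 had a signal well above background on every array. Of the 115, 14 (12.2%) were induced with DAC, 13 (11.3%) with OR-2003 and 14 (12.2%) with OR-2100. The rule for reduction was met by 5 (4.35%), 6 (5.22%) and 7 (6.09%). The medians of their differences were 0.35, 0.31 and 0.20. With all 3 drugs 13 were induced, against 5.27% of all genes, and 5 were reduced, against 5.21%. This list too was written with earlier results of these data known, so its shares are a description.

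Among ligands, INHBB, the activin βB subunit, was induced: its level was −2.12 in mock-treated cells and 1.52, 1.56 and 1.55 with the drugs, 12.4-, 12.8- and 12.8-fold higher. The other 9 of 10 TGF-β and activin ligands were not called with any drug. None of 13 BMP ligands was called with all 3 drugs. BMP7 passed with DAC only (differences 1.03, 0.83 and 0.84) and BMP6 with OR-2100 only (0.86, 0.81 and 1.01), both close to the threshold. The 3 probes of BMP7 had mean differences from 0.19 to 0.90. BMP8B had differences of −0.46, −0.44 and −0.28, with a sign that depended on the setting. BMP8A was 2.26-, 3.15- and 1.80-fold lower with the drugs. Its level in mock-treated cells, −1.86, was too low for the rule for reduction.

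Among 13 receptors only ACVRL1, the BMP9 receptor ALK1 of endothelium, was induced, from −1.31 in mock-treated cells to 0.38, 0.32 and 0.44. ENG, not well above background in mock-treated cells, was at least 8.06-, 9.44- and 9.65-fold higher, at levels of −1.28, −1.05 and −1.02. TGFBR3 was 2.66-, 2.65- and 2.60-fold higher, at levels of −1.22, −1.22 and −1.25. The levels of ENG and TGFBR3 were slightly too low for the rule of induction. Of 12 secreted antagonists NOG and FSTL3 were induced. NOG, the BMP antagonist noggin, was not well above background in mock-treated cells and was at least 14.7-, 14.7- and 14.6-fold higher with the drugs. FSTL3, which binds activin, went from 1.93 in mock-treated cells to 3.25, 3.21 and 3.18. FST was 3.49-, 3.31- and 3.35-fold higher, at levels of −1.53, −1.60 and −1.59 that were too low for the rule of induction. None of 4 latent TGF-β binding proteins was called with all 3 drugs. LTBP4 was 1.96-, 1.81- and 2.01-fold lower by its brighter probe and only just passed the rule for reduction with OR-2100. The other probe of LTBP4 had a mean difference of −0.27. LTBP3 had differences of −0.25, −0.34 and −0.27.

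Of 13 intracellular regulators, 1 was induced and 2 were reduced. PMEPA1, a TGF-β-induced inhibitor that sequesters receptor SMADs, went from −2.63 in mock-treated cells to 0.00, 0.01 and −0.22, and both of its probes were higher (mean differences 1.37 and 2.56). SMURF2, a ubiquitin ligase that SMAD7 brings to the receptor, had differences of −1.21, −1.45 and −1.41. NEDD4L, another ligase of the same kind, had differences of −1.13, −1.32 and −1.32, but its 3 probes disagreed, with mean differences from −1.28 to 0.37.

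Among 17 other TGF-β targets, TGFBI, CDKN1A and SNAI1 were induced and none was reduced. TGFBI, an extracellular matrix protein, went from −4.21 in mock-treated cells to 0.84, 0.94 and 0.70, that is 32.9-, 35.4- and 29.9-fold. TGFBI was dim in mock-treated cells, and its differences ranged from 2.36 to 5.35 on the log2 scale over the settings of the processing. CDKN1A, the cell cycle inhibitor p21, had differences of 1.26, 1.19 and 1.22. SNAI1, a repressor of epithelial genes, had differences of 1.17, 1.29 and 1.29. Of 8 other BMP targets, the homeobox genes MSX1 (5.07-, 5.02- and 4.94-fold) and DLX2 (4.46-, 4.77- and 4.54-fold) were induced and none was reduced, whereas ID1 was reduced. ID4, a further ID gene on this list, was 3.70-, 4.56- and 3.65-fold higher with the drugs. Its levels with the drugs, −1.58, −1.28 and −1.60, were too low for the rule of induction.

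Among 13 YAP and TEAD targets other than the CCN genes, ANKRD1, AMOTL2 and NUAK2 were induced and AXL was reduced. ANKRD1, a cardiac ankyrin repeat protein, was not well above background in mock-treated cells and was at least 16.9-, 18.9- and 14.6-fold higher with the drugs. AMOTL2, which restrains YAP, had differences of 1.63, 1.64 and 1.45, and NUAK2, a kinase, of 1.36, 1.23 and 1.36. AXL, a receptor tyrosine kinase, had differences of −1.15, −1.07 and −1.12.

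INHBB, FSTL3, SNAI1, MSX1, DLX2, AMOTL2 and NUAK2 were called with all 3 drugs under each of the 9 ways of computing levels that were tried, the one reported here included. The other list genes called with all 3 drugs lost the call in at least 1 of them. Several genes that were dim in mock-treated cells depended on the setting. On the log2 scale the differences ranged from 2.46 to 3.90 for INHBB, from 1.31 to 4.09 for NOG, from 1.19 to 2.84 for PMEPA1 and from 1.43 to 6.38 for ANKRD1, so their folds and bounds hold for the processing reported here.

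**Figure D3:**
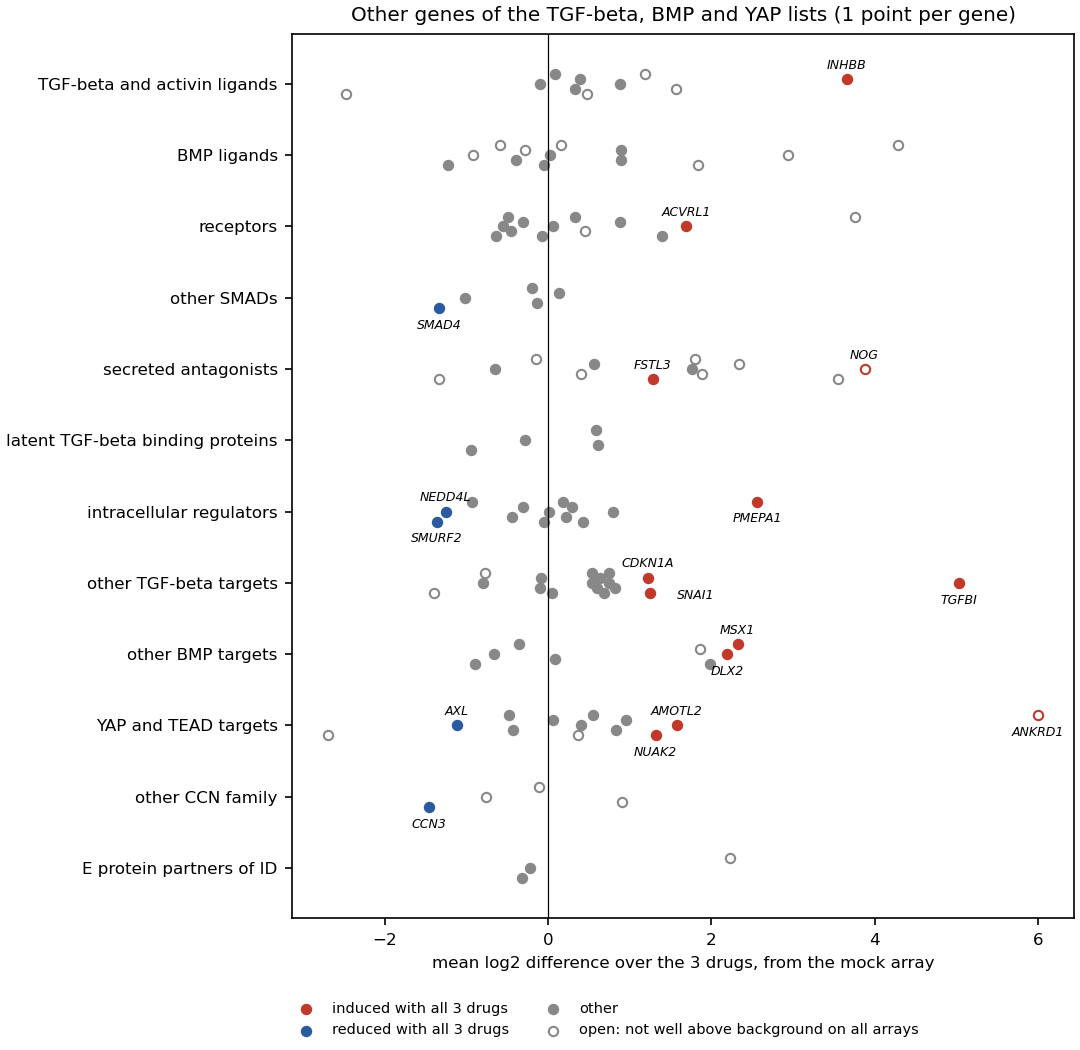
Mean log2 difference of the 3 drug-treated arrays from the mock array (x axis) for 115 other genes of the TGF-β, BMP and YAP lists (1 point per gene, rows by role). Red points were induced and blue points reduced with all 3 drugs, the other genes are gray, and open points were not well above background on all arrays. The 13 red points include TGFBI, ANKRD1, NOG and INHBB at the right, and the 5 blue points are SMAD4, SMURF2, NEDD4L, AXL and CCN3.

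DAC, OR-2003 and OR-2100 were given at the same dose and for the same time, so the drug-treated arrays can be set side by side in 3 pairs. With 1 array each the pairs have no test, and the intervals below (1.96 times the error) cover spot error only. OR-2003 minus DAC lay between −0.11 and 0.16 for all 10 probes, OR-2100 minus DAC between −0.26 and 0.15, and OR-2100 minus OR-2003 between −0.21 and 0.096. All 10 probes were inside the central 95% of the same difference over the 27921 probes, which ran from −0.36 to 0.47, from −0.49 to 0.49 and from −0.58 to 0.46.

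A pair of differences exceeded the spot error. ID1 was lower with OR-2100 than with OR-2003 by −0.21 (interval −0.61 to 0.19), and the second ID2 probe was lower with OR-2100 than with DAC by −0.26 (interval −0.65 to 0.14). BAMBI was lower with OR-2100 than with OR-2003 by −0.19 (interval −0.59 to 0.21). SMAD7 was higher with OR-2003 than with DAC by 0.15 (interval −0.25 to 0.56). Each of these intervals includes 0 and also differences of up to 0.5 or more, so equal response is not shown. Genes 2-fold apart made up 0.0563% (OR-2003 and DAC), 0.113% (OR-2100 and DAC) and 0.269% (OR-2100 and OR-2003) of the 15977 genes, and none of the 9 genes was among them.

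**Figure D4:**
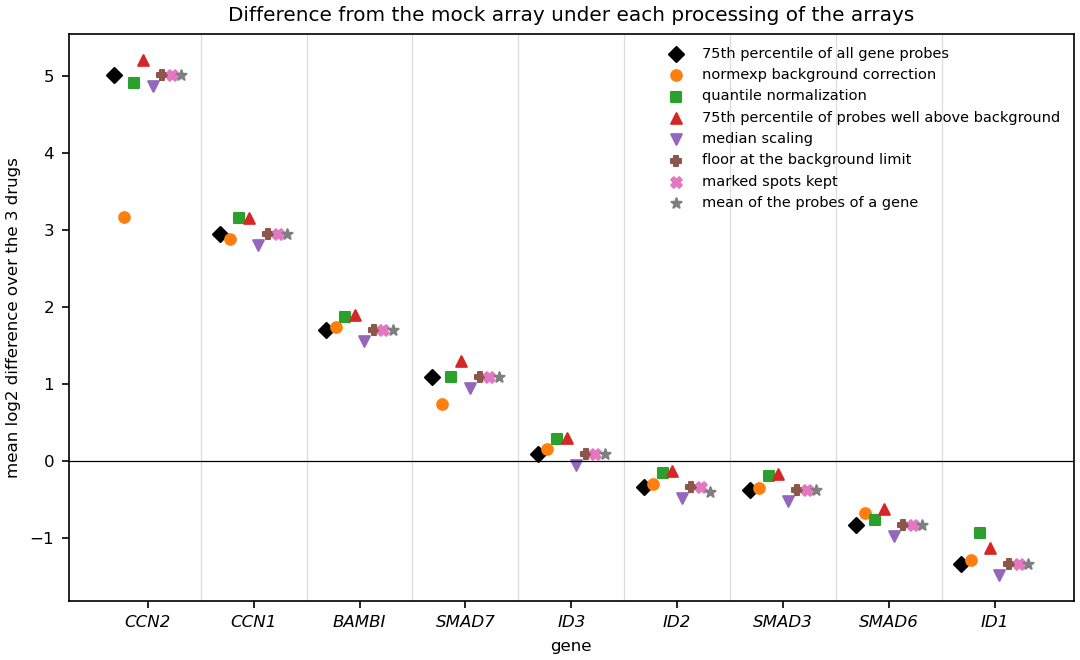
Mean log2 difference of the 3 drug-treated arrays from the mock array (y axis) for each of the 9 genes under the processing used here and the alternatives that change levels (1 marker per setting). CCN2 spreads most, since its single differences are 3.10 to 3.24 with normexp, and ID3 lies close to 0, below it under median scaling.

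The identity of the cells was checked with marker lists. Of 7 colon epithelium markers, 6 were well above background on all arrays, and VIL1 was not in mock-treated cells. EPCAM (2.81-, 2.88- and 2.74-fold lower) and CDH1 (2.13-, 2.27- and 2.37-fold lower) were reduced with all 3 drugs. The others were higher with every drug, and none of them was called. The differences were 0.59, 0.59 and 0.47 for KRT8, whose 3 probes had mean differences from −0.11 to 0.72, and 0.59, 0.52 and 0.46 for KRT18. For KRT19 they were 0.38, 0.31 and 0.32, and for CDX2 0.35, 0.15 and 0.20. VIL1 was at least 1.37-, 1.71- and 1.79-fold higher. The summed, unscaled intensity of the list was 198961 in mock-treated cells and 268471 to 296970 with the drugs. The summed intensities of the other lists were low, and were higher with the drugs through some of their genes only. The 3 leukocyte markers summed to 94.0 in mock-treated cells and to 168 to 188 with the drugs. CD14 was induced, CD3E was well above background on 1 array, and PTPRC had differences of −0.31, −0.27 and −0.16. The 3 endothelium markers summed to 77.2 and to 397 to 426. VWF was induced by its brighter probe (mean difference 2.87) but not by the other (−0.064), PECAM1 was dim in mock-treated cells and at least 8.40-, 8.90- and 9.05-fold higher, and CDH5 had differences of −0.19, 0.03 and −0.73. The 4 fibroblast markers summed to 32.4 and to 92.9 to 103. PDGFRB, with differences of −0.63, −0.29 and −1.08, was the 1 well above background on every array, LUM was so on none, and DCN was at least 6.63-, 7.26- and 6.60-fold higher. The part of these shifts in the results above was not tested. In a bulk RNA sample, a lower level from fewer expressing cells and from less RNA per cell cannot be told apart.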

How the data were processed

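The authors labeled total RNA with Cy3, hybridized it to Agilent SurePrint G3 8x60K arrays and extracted spot values with Agilent Feature Extraction 12.1.0.3. They deposited 1 scanner file per sample, and the processed signal intensity it holds (background-subtracted, linear) was used here. The deposited series table held the same intensity values.

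Spots marked as outliers were left out (52 to 98 of the 60901 gene spots per array), the log2 intensities were averaged per probe, and the array's 75th percentile over 58201 gene probes was subtracted. A probe counted as well above background if more than 0.5 of its unmarked spots did. No gene spot was saturated. Genes were named through RefSeq accessions (GRCh38.p14 table) for 34892 probes and were each represented by the probe with the highest mean level. Coordinates are given only for promoter stretches (GRCh38.p14), and none for genes or probes, since the array was designed on another build. Promoter sequences came from RefSeq (8 of the 9 genes matched).

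Differences from the mock array were counted with the thresholds of the study's methods (2-fold and −1). No test was possible with 1 array per condition, and the number of arrays limits the precision. For a probe not above background on the mock array, a fold is given as "at least", against the higher of the lowest signal well above background on that array and its own signal. The named genes were the 9 genes, the list genes called with all 3 drugs (at most 5 per list, otherwise the 2 with the highest level), TGFBR2, SMAD2 and SMAD4, and the 3 genes nearest to the highest and the lowest of the 9. BMP6, BMP8A, TCF4, ID4, ENG, TGFBR3 and FST were named outside this rule, with their values seen. Other list genes that missed a rule by level alone were not named. Genes and lists were chosen with earlier results of these data known. The marker lists covered colon epithelium, leukocytes, endothelium and fibroblasts, and some of their genes were named after their values were seen. Of the leukocyte list, 1 further marker is not reported here and was left out of its sums. Alternatives were normexp (limma 3.58.1, R 4.3.3, offset 50), quantile normalization, other scaling, floors, thresholds and probe rules. Counting was tested on simulated data. Python 3.11.15, numpy 2.4.6 and pandas 2.3.3 were used.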

Additional observations from a re-analysis of the deposited data

How the results depend on the processing

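Of 395 values recomputed under 12 alternatives, 341 stayed within 1.5 times (counts) or within the largest spot error (log2 values), 54 moved further, and none reversed among the values called. For each moved value the cause was not tested, beyond what a stricter, looser or missing threshold does by construction. Values for DAC, OR-2003 and OR-2100 are given in that order. With normexp, CCN2 differed by 3.10, 3.17 and 3.24 and SMAD7 by 0.69, 0.81 and 0.73, 2, 3 and 3 list genes were reduced, and the list median was −0.0026 with DAC and 0.013 with OR-2003. With quantile normalization, ID1 differed by −0.998, −0.866 and −0.951, so 0, 0 and 0 of the 9 genes were reduced, CCN1 differed by 3.18 with OR-2100, and 3 list genes were reduced with DAC. With each array scaled to its 75th percentile over bright probes alone, 1, 2 and 2 list genes were reduced and SMAD7 was not called because its level fell under −1; with the level threshold moved by the same amount (chosen after seeing the data), 22, 21 and 22 were induced, and 3 were reduced with DAC and 4 with OR-2100. With median scaling, 25, 27 and 25 list genes were induced and 11, 13 and 15 reduced, and 2 of the 9 genes were reduced with OR-2003. There 0 is the median of the array and not its 75th percentile, so the level threshold of −1 was looser by construction. A floor at the background limit gave a list median of 0.039 with DAC. The mean of a gene's probes gave 3 list genes reduced with DAC and 4 with OR-2100. At 4-fold, 2, 2 and 2 of the 9 genes were induced (CCN1 and CCN2) and 0, 0 and 0 reduced, with 7, 7 and 7 list genes induced and 0, 0 and 0 reduced. Without a level threshold, 28, 29 and 29 list genes were induced, and 12 were reduced with DAC and 14 with OR-2100. The split of the 9 genes into induced and reduced was 4 to 1, and was 3 to 1 with normexp, 4 to 0 with quantile normalization, 3 to 1 with the bright percentile and 3 to 1 with median scaling (3 to 2 with OR-2003). The shares over all genes given in the Results hold for the processing and thresholds reported there. No such share is given for the other settings, so their counts cannot be set against all genes. The median of the genes well above background, −0.18, −0.17 and −0.21 as reported, was −0.30, −0.39 and −0.30 with median scaling and turned sign with the bright percentile, to 0.017, 0.029 and 0.011; 5 of the 9 genes stayed above it with every drug in each setting. No paired analysis was possible because there is a single array per condition, which also leaves no replicate to leave out. Signal over background limits genes such as NOG and ANKRD1 that were dim in mock-treated cells, for which only bounds are given.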
